A study of Mus musculus and Bos taurus with 6 samples.

Results

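The miR-23, miR-27 and miR-24 miRNA come from 2 genomic clusters of hairpins. The a cluster holds miR-23a, miR-27a and miR-24-2, and the b cluster holds miR-23b, miR-27b and miR-24-1. Their products were followed in 6 small RNA libraries of lactating mammary gland. Members were taken by name, as the mouse or bovine lines of miR-23a, miR-27a and miR-27b on both arms, miR-23b and miR-24 on the 3p arm, and miR-24-1 and miR-24-2 on the 5p arm. This gave 10 of the 1750 lines of the mouse list, which serves both mouse and AGO2 libraries, and 7 of the 1539 lines of the bovine list. The bovine list carries neither miR-23a-5p nor the 5p strands of miR-24 under a name that met this rule, and its miR-27b-5p line bears the mouse prefix.

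Of the 6 libraries, 2 held total small RNA of the abdominal glands of primiparous FVB/N mice on day 12 of lactation, called mouse below. Another 2, called AGO2, held small RNA precipitated from glands of the same strain and stage with an antibody against Argonaute 2. Argonaute 2 belongs to the Argonaute proteins, which carry miRNA to their target messengers. The last 2, called bovine, each held RNA of a pool of 2 multiparous Holstein cows in mid-lactation on a low-forage diet. Mouse tissue was the gland freed of its lymph node and bovine tissue was a biopsy of the udder, both with their cells unsorted. The methods name 2 mice and draw the AGO2 libraries from 2 animals, without saying which mouse gave which library. Species, parity, diet, kind of tissue sample, RNA kit and pooling change together between mouse and bovine, so that their effects cannot be told apart. The counts assigned to listed miRNA summed to 9299807 and 8391916 in mouse, 3909166 and 5041406 in AGO2, and 9402483 and 10613807 in bovine. Levels are given as RPM, the reads of a line scaled to the same sum in every library.

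The hairpins of a cluster are cut from one transcript, and each hairpin yields a strand that is mostly kept, the guide, and a strand that is mostly lost, the passenger. In these clusters the guides are the 3p strands. The seed, a short stretch near the 5′ end by which a miRNA recognises its targets, differs between miR-23, miR-27 and miR-24 but is shared by the a and b copies. The clusters are known for their activity in blood vessels, and miR-27 for restraining the formation of fat cells and acting on genes of lipid metabolism.

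The guide strands are printed first because the a and b copies can be told apart at a single base, which sets what the counts can resolve. Each sequence is given 5′ to 3′ as deposited, with T for U. Capitals mark the seed, nucleotides 2 to 8, and, in miR-23 and miR-27, the base that differs between the clusters.
mmu-miR-23a-3p: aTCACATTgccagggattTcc
mmu-miR-23b-3p: aTCACATTgccagggattAcc
mmu-miR-27a-3p: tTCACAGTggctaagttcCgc
mmu-miR-27b-3p: tTCACAGTggctaagttcTgc
mmu-miR-24-3p: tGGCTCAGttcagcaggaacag
bta-miR-23a-3p: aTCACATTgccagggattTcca
bta-miR-23b-3p: aTCACATTgccagggattAccac
bta-miR-27a-3p: tTCACAGTggctaagttcCg

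Counted from 1 at the 5′ end, miR-23a-3p and miR-23b-3p differ by T19A, and miR-27a-3p and miR-27b-3p by C19T. The first 18 bases are identical in both pairs. Reads were kept from 17 nt upwards, so a read that ended before base 19 could not be told apart, and the rule by which such reads were counted is not given in the sources used here. The miR-24-3p sequence is the same from either cluster, so its counts cannot be divided between a and b. The bovine strands differed from the mouse strands only in the listed 3′ end, miR-23a-3p being 22 nt against 21, miR-23b-3p 23 against 21, and miR-27a-3p 20 against 21. The bovine sequences of miR-27b-3p and miR-24-3p were those of mouse.

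The passenger strands of miR-24 are the only products that tell apart the miR-24 hairpins of the a and b clusters, and are shown with the seed alone in capitals.
mmu-miR-24-1-5p: gTGCCTACtgagctgatatcagt
mmu-miR-24-2-5p: gTGCCTACtgagctgaaacagt

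They share their first 16 bases, seed included. Of the 10 mouse members, 9 had an identical mature sequence in RefSeq of the GRCm38 build, and miR-23b-3p had no entry there.

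By the RefSeq positions on GRCm38, the a cluster spans 404 nt on the plus strand at chr8:84208518-84208921. Overlapping genes were taken from the GENCODE annotation of the same build. Mir23a and Mir27a overlapped no other gene there, and the last 2 nt of Mir24-2 lay in an exon of the long non-coding RNA Gm26532. The b cluster spans 792 nt on the plus strand at chr13:63300484-63301275, within the protein-coding gene 2010111I01Rik. Mir23b was intronic in it, whereas the 73 nt of Mir27b and the 68 nt of Mir24-1 were each covered by an exon of at least 1 transcript. Fancc, a Fanconi anaemia gene, runs through the same stretch on the opposite strand. Both miR-24 hairpins also have an antisense hairpin, miR-3074, whose lines held at most 9 reads in any mouse or AGO2 library.

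Together, the 5 guide strands made up 4.63% ± 0.264 (SD, n = 2) of the counts in mouse, 4.62% ± 0.184 (n = 2) in AGO2 and 9.06% ± 0.214 (n = 2) in bovine. The mouse and AGO2 shares thus lay within each other's spread, whereas both bovine libraries lay above all the others. Counting error was small for these strands, with a 95% Wilson interval of at most 1.84% of the level on either side. No molecular identifiers mark the reads, so that these intervals are limited to counting error.

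The miR-23a-3p guide reached 12743 and 8868 RPM in mouse, 14460.4 and 10544 RPM in AGO2, and 28027 and 30996 RPM in bovine. The mouse and AGO2 libraries overlapped, and both bovine libraries were higher than all of them. Its b copy, miR-23b-3p, reached 6765 and 3786 RPM in mouse, 7943 and 5272 RPM in AGO2, and 16588 and 17393 RPM in bovine, with the same overlap and the same order of groups.

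The miR-27a-3p guide did not share this pattern. It reached 5871 and 8613 RPM in mouse, 11387 and 16589.6 RPM in AGO2, and 7589 and 6851 RPM in bovine. Both AGO2 libraries were above the other 4, and the bovine values lay between those of the 2 mice. For miR-27b-3p the levels were 10326 and 10882 RPM in mouse, 10757 and 9592 RPM in AGO2, and 17218 and 16135 RPM in bovine. Here the bovine libraries were above the others, and mouse and AGO2 overlapped.

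The miR-24-3p guide differed little between replicates. Its level was 12483 and 12306 RPM in mouse, 2949.99 and 2894 RPM in AGO2, and 19618 and 20689 RPM in bovine. The 3 groups did not overlap on this scale.

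In mouse, the order of the mean levels was miR-24-3p, miR-23a-3p, miR-27b-3p, miR-27a-3p and miR-23b-3p, and only miR-27b-3p and miR-27a-3p, among neighbours in this order, were separate in both libraries. In AGO2, miR-27a-3p came first and miR-24-3p last. The first 3 places, of miR-27a-3p, miR-23a-3p and miR-27b-3p, overlapped from each to the next, and below them miR-23b-3p and miR-24-3p were each separate. In bovine, miR-23a-3p led, followed by miR-24-3p, miR-23b-3p, miR-27b-3p and miR-27a-3p, and only miR-23b-3p and miR-27b-3p overlapped. In its libraries, bovine miR-23a-3p was the 8th and 7th most counted of all lines, whereas miR-27a-3p was the 31st and 33rd.

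**Figure D1:**
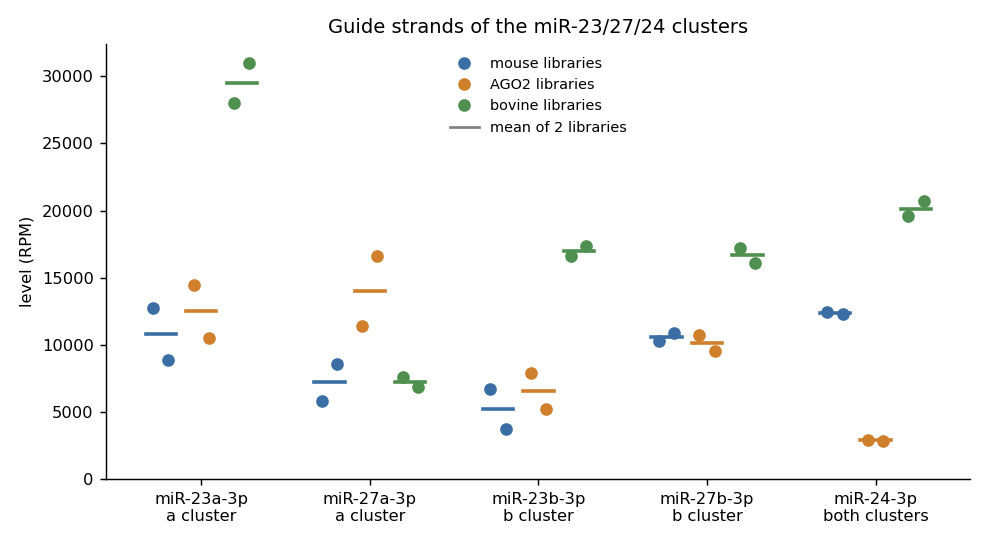
Level in RPM (linear axis from 0) of the 5 guide strands in each of the 6 libraries, as dots, with the mean of the 2 libraries of a group as a bar. The AGO2 libraries of miR-24-3p, at 2949.99 and 2894 RPM, sit far below the mouse libraries at 12483 and 12306 RPM, whereas those of miR-27a-3p sit above them.

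The ratio of 2 strands within a library needs no normalisation, and was used to compare the clusters. With 2 libraries against 2, the exact two-sided permutation test cannot give a p below 0.333, so the values of each library are given and no difference in ratio can pass a threshold of 0.05. The ratio of miR-23a-3p to miR-23b-3p was 1.88 and 2.34 in mouse, 1.82 and 2.00 in AGO2, and 1.69 and 1.78 in bovine. The a copy was thus the more counted in all 6 libraries. On the log2 scale the mean was 1.07 ± 0.22 (SD, n = 2) in mouse, 0.93 ± 0.10 (n = 2) in AGO2 and 0.80 ± 0.05 (n = 2) in bovine. AGO2 overlapped with mouse (exact permutation p = 0.667), and both bovine values lay below the mouse values (p = 0.333, the smallest possible).

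The ratio of miR-27a-3p to miR-27b-3p moved more. It was 0.569 and 0.792 in mouse, 1.06 and 1.73 in AGO2, and 0.441 and 0.425 in bovine. The b copy was the more counted in the mouse and bovine libraries, and the a copy in both AGO2 libraries. The mean log2 ratio was -0.58 ± 0.34 (SD, n = 2) in mouse, 0.44 ± 0.50 (n = 2) in AGO2 and -1.21 ± 0.04 (n = 2) in bovine, and no 2 of these groups overlapped. AGO2 exceeded mouse by 1.01 on this scale, a 2.02-fold difference, and bovine lay 0.63 below mouse, each with an exact permutation p of 0.333. The smaller of the gaps, between 0.425 to 0.441 in bovine and 0.569 in the first mouse library, was less than the distance between the 2 mice. On the log2 scale the gap between AGO2 and mouse, 0.08 against -0.34, was also less than that distance, from -0.81 to -0.34. The 2 AGO2 libraries, at 0.08 and 0.79, lay further apart than the 2 mice.

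When miR-23 and miR-27 were added up, the a cluster exceeded the b cluster in all 6 libraries. The ratio of the sums was 1.09 and 1.19 in mouse, 1.38 and 1.83 in AGO2, and 1.05 and 1.13 in bovine. The bovine and mouse libraries overlapped, so that the opposite positions of miR-23 and miR-27 between the copies left a ratio near 1 in both species. Both AGO2 libraries were above both mouse libraries (exact permutation p = 0.333).

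The guides of a single cluster were not counted in a constant ratio. These 2 ratios were added after the levels had been seen. In the a cluster, miR-27a-3p per miR-23a-3p was 0.461 and 0.971 in mouse, 0.787 and 1.57 in AGO2, and 0.271 and 0.221 in bovine. In the b cluster, miR-27b-3p per miR-23b-3p was 1.53 and 2.87 in mouse, 1.35 and 1.82 in AGO2, and 1.04 and 0.928 in bovine. Mouse and AGO2 overlapped in both clusters, and bovine was below both in each. The 2 mouse libraries lay further apart than the means of mouse and AGO2 in both clusters, with the second library higher in miR-27 and lower in miR-23 in both clusters.

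Over both clusters, the miR-27 guides per miR-23 guide numbered 0.830 and 1.54 in mouse, 0.988 and 1.66 in AGO2, and 0.556 and 0.475 in bovine. The mouse and AGO2 libraries overlapped (exact permutation p = 0.667), and the bovine libraries were below the mouse libraries by 1.14 on the log2 scale (p = 0.333). The miR-24-3p guide per miR-23 guide numbered 0.640 and 0.973 in mouse, 0.132 and 0.183 in AGO2, and 0.440 and 0.428 in bovine. Here all 3 groups were separate. The AGO2 ratio was 5.08-fold lower than that of mouse, and the bovine ratio 1.82-fold lower, each with an exact permutation p of 0.333.

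**Figure D2:**
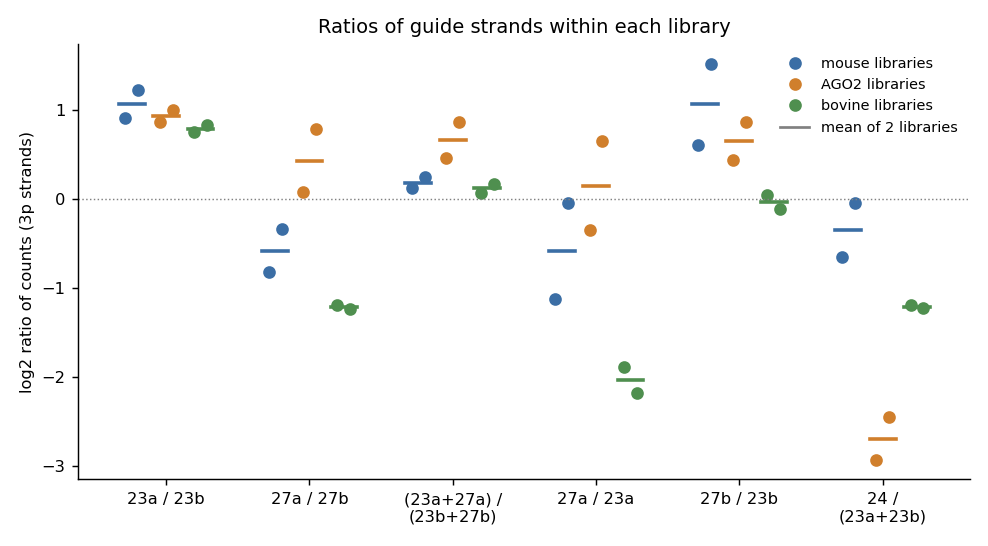
Log2 ratio of the counts of 3p strands within each of the 6 libraries, as dots, with the mean of each group as a bar; the dotted line at 0 marks equal counts. The ratio of miR-23a to miR-23b stays between 0.76 and 1.23, whereas the ratio of miR-27a to miR-27b lies above 0 in AGO2 and below it in mouse and bovine, and that of miR-24 to miR-23 is lowest in AGO2.

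The comparison of AGO2 with mouse asks which miRNA are held by Argonaute 2 out of proportion to their level in the gland. Binding to Argonaute 2, the lysis, bead and wash steps, and the amount of RNA change together here, so that their effects cannot be told apart. The paper proposes that less RNA in the precipitates could explain some differences in the miRNA found. None of the libraries is a control precipitate. Only miR-24-3p among the members passed the test, and it was lower in AGO2. Of the 10 mouse members, 8 passed the filter, the minimum count that the study required in at least 1 of the 4 libraries, and miR-23a-5p and miR-27a-5p did not. The test was edgeR's quasi-likelihood F test over 299 miRNA, with the adjustment of Benjamini and Hochberg at 0.05. It called 27.8% of all miRNA tested, with 15.4% higher and 12.4% lower in AGO2, and 1 of the 8 members, which is a smaller share than this background. The median log2 fold change was 0.23 over the 8 members and -0.12 over all miRNA tested.

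The log2 fold change of miR-24-3p was -1.93 ± 0.47 (SE, n = 2 libraries per group, adjusted p = 0.00337), a level 3.82-fold lower in AGO2. The call was lost without either AGO2 library. Without the first it was -1.56 with an adjusted p of 0.107, and without the second it was -1.84 with an adjusted p of 0.0926, while over all alternatives the adjusted p lay between 0.000404 and 0.107.

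The change of miR-27a-3p was 1.11 ± 0.45 (SE, n = 2 per group, adjusted p = 0.0690), and did not pass the threshold. It passed under DESeq2, with 1.20 and an adjusted p of 0.0497, and without the first AGO2 library, with 1.72 and an adjusted p of 0.0369. Over all alternatives its adjusted p ran from 0.00600 to 0.514.

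The other 3 guides gave smaller values. The log2 fold change was 0.36 ± 0.43 for miR-23a-3p (SE, adjusted p = 0.506), 0.48 ± 0.49 for miR-23b-3p (adjusted p = 0.448) and 0.09 ± 0.43 for miR-27b-3p (adjusted p = 0.891). The sign of miR-27b-3p was not stable, since it was -0.060 with library totals in place of TMM. Normalised levels of mouse and AGO2 did not overlap for 3 of the 8 members, miR-24-3p, miR-27a-3p and miR-24-1-5p, against 72.9% of all miRNA tested.

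Bovine against mouse asks how far the miRNA of lactation are alike in both species. Both miR-23 guides were higher in bovine, and the other 3 guides did not pass the test. All 5 guides were tested among 150 miRNA matched between the species that reached 100 RPM in 1 or more of the 4 libraries, and no 5p member was. The test called 59.3% of these, with 28% higher and 31.3% lower in bovine, so that 2 of 5 members is no larger a share than the background. The median log2 fold change was 0.20 over the 5 members and -0.02 over all matched miRNA tested. Normalised levels did not overlap between the species for any of the 5, against 84.7% of all miRNA tested, although on the RPM scale miR-27a-3p did overlap.

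The miR-23a-3p guide was higher in bovine by 0.95 ± 0.30 on the log2 scale (SE, n = 2 per group, adjusted p = 0.0319), which is 1.93-fold. The miR-23b-3p guide was higher by 1.19 ± 0.34 (adjusted p = 0.0264), which is 2.29-fold. Neither call held without a bovine library. A fit with 1 library left in a group takes its spread from the other group alone. With each library left out in turn, the log2 fold change ran from 0.72 to 1.32 for miR-23a-3p. For miR-23b-3p it ran from 0.83 to 1.75.

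The miR-24-3p guide differed by 0.20 ± 0.26 (SE, adjusted p = 0.543), miR-27b-3p by 0.14 ± 0.26 (adjusted p = 0.663) and miR-27a-3p by -0.52 ± 0.32 (adjusted p = 0.202). With each library left out in turn, the last ran from -0.67 to -0.20, and its adjusted p reached 0.989 over all alternatives. These values depend on the scale. TMM set the median of the matched miRNA near 0, whereas library totals alone put it at 0.49. Under library totals miR-24-3p was 0.70 higher in bovine with an adjusted p of 0.0469, in a range up to 0.947, and the calls over all matched miRNA were 50 higher and 36 lower, against 42 and 47 with TMM. Under TMM the miR-23 guides lay above the median of all matched miRNA. A change of scale shifts all miRNA by nearly the same amount, so library totals could not test that position.

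**Figure D3:**
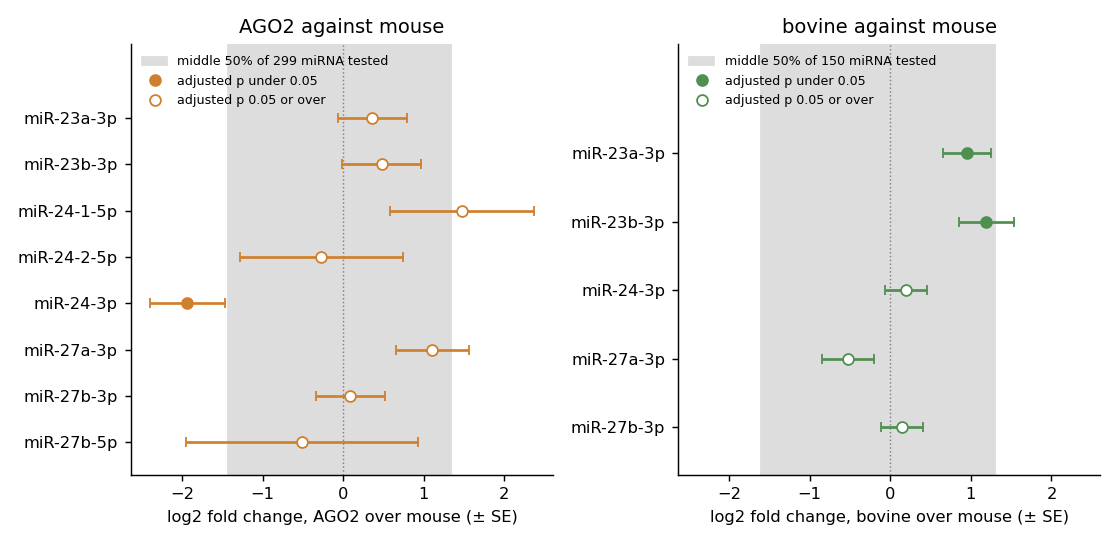
Log2 fold change with its standard error of the members tested in AGO2 over mouse (left, 8 members) and bovine over mouse (right, 5 members); filled dots passed an adjusted p of 0.05, and the grey band spans the middle 50% of all miRNA tested. Only miR-24-3p is filled on the left, at -1.93, and only miR-23a-3p and miR-23b-3p on the right, at 0.95 and 1.19.

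Beside these comparisons, the miRNA that mark cell types also moved. Between mouse and bovine, in bulk tissue, fewer cells of a type and less RNA per cell cannot be told apart. The AGO2 sums are of precipitated RNA, from glands of the same strain and stage as mouse. The 6 markers of mammary epithelium (the miR-200 family, miR-141 and miR-205), detected in every library, summed to 159803 to 188746 RPM in mouse, 338037 to 368284 RPM in AGO2 and 77607 to 79458 RPM in bovine. The sums hide members that moved in opposite directions. In AGO2 against mouse, miR-200a-3p and miR-141-3p were higher (log2 fold change 1.58 and 1.34, adjusted p = 0.000388 and 0.00976) and miR-200b-3p and miR-200c-3p lower (-1.43 and -1.71, adjusted p = 0.0174 and 0.0318). In bovine against mouse, 4 of the 6 were lower, with miR-200a-3p at -3.36 (adjusted p = 0.000899), whereas miR-205-5p was higher at 1.97 (adjusted p = 0.00390). The 2 strands of miR-126, which mark endothelium, summed to 24194 to 34265, 28819 to 29279.6 and 55972 to 62356 RPM in the same order. Here too the AGO2 sum joins a strand that was lower, miR-126a-3p (-1.30, adjusted p = 0.0274), and one that was higher, miR-126a-5p (1.18, adjusted p = 0.0422), and neither passed the test in bovine. The 5 markers of fibroblasts and smooth muscle summed to 54443 to 71185, 35114 to 37249 and 63691 to 78041 RPM, and the 3 of erythrocytes to 6504 to 13343, 15527 to 32468 and 1098 to 1709 RPM. The 5 markers of leukocytes summed to 1263 to 2123, 2351 to 2971 and 2553 to 3285 RPM. In bovine against mouse, 2 of these 5 were higher (miR-150-5p and miR-155-5p) and 2 lower (miR-142-3p and miR-223-3p). In AGO2 against mouse, none of the 5 passed the test, nor did any of the 5 markers of fibroblasts and smooth muscle. The 3 markers of striated muscle summed to 163 to 213, 27.9 to 70.2 and 727 to 782 RPM, with 1 of the 3 at 0 in the second mouse library. The part of these differences in the results above was not tested.

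The passenger strands were rare in all libraries. The miR-27a-5p strand had 96 and 61 reads in mouse, 0 and 20 in AGO2, and 90 and 92 in bovine, or at most 10.3 RPM. The count of 0 in the first AGO2 library allows up to 0.767 RPM. In mouse 569 and 1185 reads of miR-27a-3p were counted per read of miR-27a-5p, in bovine 793 and 790.4, and in AGO2 at least 14838 in the first library, with the limit of 3 counts as denominator, and 4182 in the second. Both AGO2 libraries thus had more guide per passenger than the other 4.

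The miR-27b-5p strand had 22.2 and 14.8 RPM in mouse, 21.5 and 2.58 RPM in AGO2, and 25.2 and 18.7 RPM in bovine. There were 466 and 736 guides per passenger in mouse, 501 and 3719.9 in AGO2, and 683 and 865 in bovine. The AGO2 libraries were too far apart to be set against mouse (exact permutation p = 0.667). The log2 fold change of miR-27b-5p in AGO2 was -0.51 ± 1.44 (SE, adjusted p = 0.798). The miR-23a-5p strand had 0 and 3 reads in mouse and 0 and 6 in AGO2, at or near the limit of detection, so that no ratio is given.

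The miR-24 passengers behaved otherwise, as the share of passenger was higher in AGO2. The miR-24-1-5p strand, from the b cluster, had 29.5 RPM (95% Wilson interval 26.2 to 33.2) and 16.9 RPM (14.4 to 19.9) in mouse, and 65.0 RPM (57.5 to 73.5) and 51.0 RPM (45.1 to 57.6) in AGO2. Both AGO2 libraries were above both mouse libraries, beyond counting error. The log2 fold change was 1.48 ± 0.89 (SE, adjusted p = 0.209) and did not pass the test. The miR-24-2-5p strand, from the a cluster, had 46.2 RPM (42.1 to 50.8) and 25.5 RPM (22.3 to 29.2) in mouse, and 17.9 RPM (14.2 to 22.6) and 34.5 RPM (29.8 to 40.0) in AGO2. Here the groups overlapped, with a log2 fold change of -0.27 ± 1.01 (SE, adjusted p = 0.857).

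Per read of both passengers together, miR-24-3p had 165 and 290.1 reads in mouse, and 35.6 and 33.8 in AGO2. The mean log2 ratio was 7.77 ± 0.57 (SD, n = 2) in mouse and 5.11 ± 0.05 (n = 2) in AGO2, a 6.30-fold difference without overlap (exact permutation p = 0.333). The difference was in the opposite direction to that of miR-27a. The bovine list counts the 5p strand of the miR-24-1 hairpin, with the same sequence as in mouse, under a name without arm, and that of miR-24-2 under a human name, and neither line is a member. With these lines, bovine had 437 and 498 reads of miR-24-3p per passenger read, above both mouse libraries (exact permutation p = 0.333). This gap was not seen with the miR-24-1 passenger alone, the strand of identical sequence, per read of which miR-24-3p had 424 and 727 reads in mouse and 459 and 527 in bovine (exact permutation p = 1).

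The balance of the 2 miR-24 passengers, examined after their values had been seen, differed between groups. There were 1.57 and 1.51 reads of miR-24-2-5p per read of miR-24-1-5p in mouse, and 0.276 and 0.677 in AGO2. The a cluster passenger was thus the more counted in both mouse libraries and the less counted in both AGO2 libraries. In bovine the ratio was 0.0498 and 0.0576, from 20 and 24 reads against 402 and 417. The listed bovine sequence of the miR-24-2 passenger is not that of mouse, and how far this bears on its count was not tested.

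**Figure D4:**
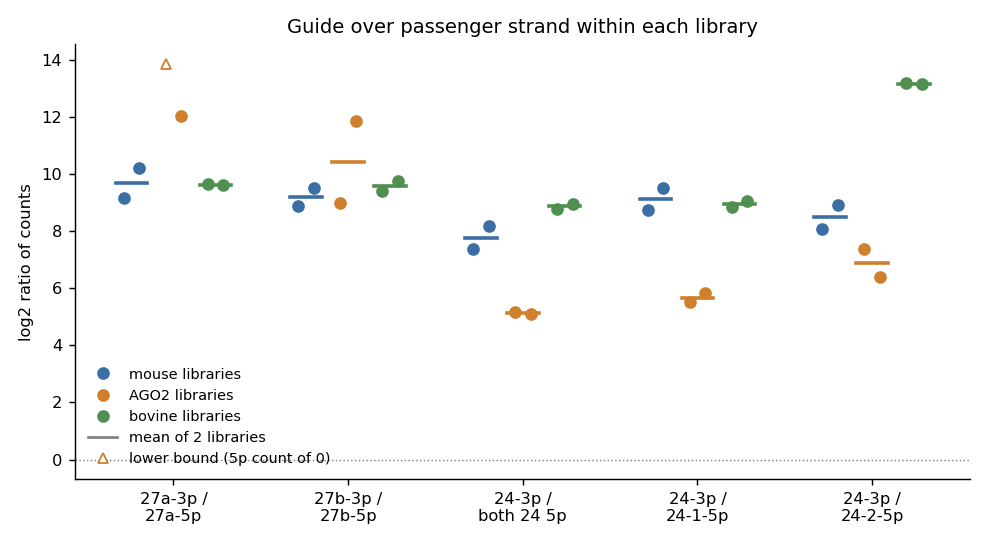
Log2 ratio of the guide (3p) to the passenger (5p) count within each of the 6 libraries, as dots, with the mean of each group as a bar; the open triangle is a lower bound, from a passenger count of 0. AGO2 lies above mouse for miR-27a and below it for the 3 ratios of miR-24-3p, and the bovine miR-24 passengers are lines that are no members.

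Other strands of the same hairpins were near the limit of detection. The miR-23b-5p strand had 18 and 10 reads in mouse, 1 and 1 in AGO2, and 9 and 13 in bovine, and the bovine line of miR-23a-5p, under a human name, had 10 and 7.

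The members held nearly all reads of their seeds. No other listed line had the miR-27 seed. The miR-24-3p seed was also found in 2 predicted bovine miRNA, at 1.60 to 3.94 RPM. The miR-23 seed was found in 1 predicted mouse miRNA at an appreciable level, the 3p strand of precursor 3_28325, a hairpin of 65 nt in an intron of Col25a1 at chr3:130301422-130301486 (GRCm38, plus strand). It had 189.4 and 199.1 RPM in mouse and 416 and 236 RPM in AGO2, with a log2 fold change of 0.88 ± 0.63 in AGO2 over mouse (SE, adjusted p = 0.284) that did not pass the test. Its sequence is set beside that of miR-23a-3p because of their likeness, with capitals for the seed and for the bases that differ.
mmu-miR-23a-3p: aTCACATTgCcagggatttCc
mmu-3_28325-3p: aTCACATTgAcagggatttT

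The differences from miR-23a-3p were C10A and C20T. A predicted bovine miRNA with the miR-23 seed had 2 and 0 reads. Summed by seed, the miR-23 class reached 16275 ± 4839.9 RPM (SD, n = 2) in mouse, 19436 ± 4785 RPM (n = 2) in AGO2 and 46502 ± 2668 RPM (n = 2) in bovine. The miR-27 class reached 17846 ± 2332, 24163 ± 2856 and 23896 ± 1288 RPM in the same order. The a and b copies of miR-27 thus added to a bovine sum close to that of AGO2, with most of it from the b copy in bovine.

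Across the 6 libraries, likeness of pattern was described by Pearson's r of log2(RPM + 1) among the 104 matched miRNA that reached 100 RPM in 1 or more libraries of each kind. The 6 libraries share species and kit in groups of 2, so r mostly reflects the levels of the 3 groups. The miR-23a-3p and miR-23b-3p guides followed each other (r = 0.99), although they come from different clusters. The guides of the a cluster did not, with r = -0.44 for miR-23a-3p and miR-27a-3p, whereas r was 0.89 for miR-23b-3p and miR-27b-3p in the b cluster.

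Outside the clusters, the miRNA most like miR-23a-3p were miR-151-3p and miR-205-5p (r = 0.99 each), and those most like miR-23b-3p were miR-374b-5p (0.99) and miR-92a-3p (0.98). The miR-27b-3p guide was most like miR-139-5p and miR-205-5p (0.97 each). For miR-27a-3p they were miR-199a-5p (0.99) and miR-30a-5p (0.95). For miR-24-3p they were miR-126a-3p and miR-34a-5p (0.98 each). The miR-126a-3p strand was lowest in AGO2, as was miR-24-3p, at 6776 and 6711 RPM, against 16269.7 and 20468 RPM in mouse and 38701 and 30592 RPM in bovine. The other strand of the same hairpin, miR-126a-5p, was higher in AGO2 than in mouse, as given above.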

How the data were processed

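Small RNA had been tailed with poly(A) and sequenced. The authors trimmed these tails, retained reads of 17 to 28 nt, and obtained counts per mature miRNA with miRDeep2, using miRBase 20 and predicted precursors, then removed redundant lines. The deposited counts were used without change, and a deposited column of normalised values was left aside. The score of a predicted precursor is the authors' miRDeep2 value, from pooled reads. Positions refer to GRCm38, one of the builds in the submitters' processing notes. The labels gave the groups.

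RPM were computed over each library's counts. The count test was edgeR 4.0.16 (R 4.3.3; TMM, quasi-likelihood F test, Benjamini-Hochberg adjustment, 0.05), with the SE as the log2 fold change over the square root of F. It was first tested on simulated counts. Species were matched by 247 of the 251 lines of the study's side-by-side list, leaving out 4 lines with different arms. Named miRNA were the members, other strands and seed sharers, and the 2 non-members most like each guide. Members and lists were chosen with earlier results of these data known. Tests of arm ratios had 1 added to both counts. Alternatives were DESeq2 1.42.0, its size factors, library totals, no filter, other matching, other added counts, seeds of nucleotides 2 to 7, each library left out and, added later, a replicate block for AGO2. Other software was Python 3.11.15 with NumPy 2.4.6, pandas 2.3.3, SciPy 1.17.1 and matplotlib 3.10.9.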

Additional observations from a re-analysis of the deposited data

Results flagged for a closer look

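The list of predicted precursors, which no comparison used, held 6557 reads, pooled over libraries, for the mature strand of precursor 3_28325, which carries the miR-23 seed. The counts per library were 1761 and 1671 in mouse and 1625 and 1192 in AGO2. These do not add up to the pooled number, and the cause was not tested. The miRDeep2 score of the precursor was 3.5. The separate counts of this strand in each library were tested in AGO2 against mouse, as given above. The paper lists it among its predicted miRNA.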

How the results depend on the processing

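Most alternatives to the counts of calls and the ratios stayed within 1.5 times the count or within the spread of replicates, and 15 did not. For ratios with a library left out this carried no information. With 2 libraries a group, leaving 1 out cannot move the difference beyond the spread used. Signs turned within it for some ratios that overlapped between groups. The miR-27 guides per miR-23 guide ran from -0.27 to 0.62 in AGO2 minus mouse (log2), and miR-27b-3p per miR-27b-5p from -0.23 to 2.57. In AGO2 against mouse, 2 members rather than 1 were called by DESeq2, and without a filter 29 rather than 46 miRNA were higher. In bovine against mouse, 1 member rather than 2 was called without a filter, since miR-23a-3p then had 0.78 with an adjusted p of 0.0637, and 76 rather than 47 miRNA were lower. With each library left out in turn, the calls in AGO2 were 31 to 62 higher, 21 to 33 lower and 0 to 1 among members, and those in bovine 19 to 63 higher, 24 to 59 lower and 0 to 3 among members. The cause was not tested. The log2 fold change of miR-27b-3p turned in AGO2 with library totals (-0.060) and without a filter (-0.067), and in bovine without a filter (-0.031). With libraries left out, it ran from -0.75 to 0.49 for miR-24-2-5p and from -2.29 to 0.47 for miR-27b-5p in AGO2. None of these values passed the test.

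A fit with 1 library left in a group takes its spread from the other group. With 2 libraries a group, the exact test of a ratio has no p under 0.333, and the reads of miR-23a-5p are too few for a ratio. The labels give the groups no shared numbers, but the study numbers the mouse and AGO2 samples 1 and 2 alike. These numbers were assigned in the order of the titles, an inference that no label states, and no source ties a number to a mouse. Deviations of same-numbered libraries from their group means had r = 0.28 over 299 miRNA. With the numbers as a replicate block, chosen after seeing the data, edgeR called 60 higher, 61 lower and 2 members in AGO2, with miR-27a-3p at 1.10 (adjusted p = 0.00600) beside miR-24-3p at -1.93 (adjusted p = 0.000947). For bovine against mouse, no paired analysis was possible because the libraries are of different animals.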
